A study of Rattus norvegicus with 16 samples.

Results

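A set of 6 transient receptor potential (TRP) channel genes known from nociceptors, Trpv1, Trpv2, Trpv4, Trpa1, Trpm8 and Trpm3, were followed in rat dorsal root ganglia (DRGs) during the development of bone cancer. They were taken by gene symbol and not by a cut-off on their values, but with earlier results of these data known. The paper names Trpv4 among its top changed ion channel genes. Each symbol matched 1 row of the deposited tables, which gave 6 of 21021 genes. Walker 256 rat mammary carcinoma cells were put into the cavity of the left tibia of adult female Sprague-Dawley rats (tumor cell implantation, TCI), and the L3-L5 DRGs of the same side were taken 1, 7 or 14 days later. The ganglia of 1 rat formed 1 sample, and there were 4 samples each for sham, day 1, day 7 and day 14 after TCI. The sham rats had the same operation with no living tumor cells, with PBS according to the labels and boiled tumor cells according to the methods. The labels place all sham samples at day 14, so on days 1 and 7 the tumor and the time since surgery cannot be told apart. Day 1 sample 2 and day 7 sample 3 were not used by the study, and the tests below rest on the 14 samples it kept. Values are FPKM (fragment counts divided by transcript length and by the total of the library), so levels can be compared between genes.

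TRP channels are cation channels made of 4 subunits that open to heat, cold, chemicals or lipids and let sodium and calcium into the cell. In sensory neurons TRPV1 responds to noxious heat, acid and capsaicin, TRPA1 to irritants such as mustard oil, TRPM8 to cool temperatures and menthol, and TRPM3 to heat and pregnenolone sulfate. TRPV2 opens at very high temperatures when expressed in cell lines and is found in larger, myelinated afferents as well as in immune cells, and TRPV4 responds to swelling, warmth and lipid mediators and is prominent in epithelium, endothelium and glia. Inflammation is known to sensitize TRPV1 and TRPA1 through kinases, lipases and movement of channels to the membrane, none of which RNA levels show.

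The promoters of Trpv1, the member with the highest level in sham ganglia, and of Trpv4, the member with the lowest, are shown here. Trpv4 was also the member that differed most after TCI. These promoters do not stand for those of the other members. Both are RefSeq windows on assembly GRCr8, from 250 bases before to 50 after the start, given 5′ to 3′ on the plus strand, which is the gene strand for both. The first lies at chr10:58349686-58349985 and the second at chr12:47598938-47599237. Capitals mark a CCAAT box (CCAAT, here as ATTGG on the other strand) or a GC box (GGGCGG).
Trpv1 promoter: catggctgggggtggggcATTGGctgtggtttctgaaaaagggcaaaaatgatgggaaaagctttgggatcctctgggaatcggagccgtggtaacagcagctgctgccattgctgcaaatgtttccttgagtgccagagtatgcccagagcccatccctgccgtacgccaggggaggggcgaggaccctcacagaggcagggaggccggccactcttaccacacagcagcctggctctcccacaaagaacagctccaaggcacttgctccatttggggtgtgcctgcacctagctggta
Trpv4 promoter: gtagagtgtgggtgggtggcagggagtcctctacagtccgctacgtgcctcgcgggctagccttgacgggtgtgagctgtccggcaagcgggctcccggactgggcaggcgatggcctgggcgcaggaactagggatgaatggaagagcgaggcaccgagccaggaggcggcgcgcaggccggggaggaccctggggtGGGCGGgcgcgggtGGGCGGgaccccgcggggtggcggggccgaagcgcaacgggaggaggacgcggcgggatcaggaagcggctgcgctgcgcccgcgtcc
The Trpv4 window was 73.7% G or C, more than 96.0% of the 33469 promoters in the table, and held 2 GC boxes, a motif found on either strand in 33.1% of them. The Trpv1 window was 58.3% G or C against a median of 51.7%, and held no GC box and 1 CCAAT box, which 37.5% of all promoters hold. A TATA box (TATAAA), present in 14.2% of all promoters, was in neither window. The motifs do not overlap each other, and a match in these letters is a description of the window only. The assembly the authors used is not given in the sources used here, and the promoters were matched by gene identifier. Gene identifiers in the tables were 83810 for Trpv1 on chromosome 10, 29465 for Trpv2 on chromosome 10, 66026 for Trpv4 on chromosome 12, 312896 for Trpa1 on chromosome 5, 171384 for Trpm8 on chromosome 9 and 309407 for Trpm3 on chromosome 1.

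In sham ganglia the members spanned from among the more abundant genes of the tissue to near the lower end. Trpv1 had the highest level, 40.7 ± 4.48 FPKM (SD, n = 4), above 89.8% of all genes. Trpv2 followed at 30.4 ± 2.58 FPKM, Trpm8 at 22.3 ± 1.73 FPKM and Trpa1 at 19.9 ± 5.35 FPKM. Trpm8 and Trpa1 could not be ordered, since their sham ranges overlapped and Trpm8 was the higher in 3 of 4 samples. Trpm3 stood lower, at 8.48 ± 0.674 FPKM, and Trpv4 lowest at 0.348 ± 0.0411 FPKM, above 29.4% of all genes. Every other pair of neighbours in this order had sham ranges that did not overlap, from a ratio of means of 1.34 between Trpv1 and Trpv2 to 24.4 between Trpm3 and Trpv4. The markers of the tissue were present, with Calca, which encodes the peptide CGRP of peptidergic nociceptors, at 697.7 ± 59.8 FPKM and P2rx3, an ATP-gated channel of non-peptidergic nociceptors, at 101 ± 4.40 FPKM in sham.

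Libraries differed in their tissue content, which touches several values below. Core skeletal muscle genes summed to 12455 FPKM in sample 3 of day 7 and 269.7 FPKM in sham sample 4, far above every other sample. In sample 3 of day 7 the summed level of 7 neuronal genes was 3358 FPKM, against 4684 to 5288 FPKM in the other day 7 samples. Macrophage marker genes summed to 72.5 to 136 FPKM in sham, 96.8 to 116 FPKM on day 1, 866 to 1307 FPKM on day 7 and 545 to 1890 FPKM on day 14, and 15 of 15 and 13 of 15 of them were called higher on days 7 and 14, beside 14.5% and 11.9% of all genes. Fibroblast genes were called higher for 6 of 10 on day 7 and 3 of 10 on day 14. FPKM tables hold no fragment counts, so no counting error could be computed. Judged from the smallest values of 58 weakly expressed genes, the relative depth of the libraries ran from 0.914 to 1.17, with the median library at 1.

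**Figure D1:**
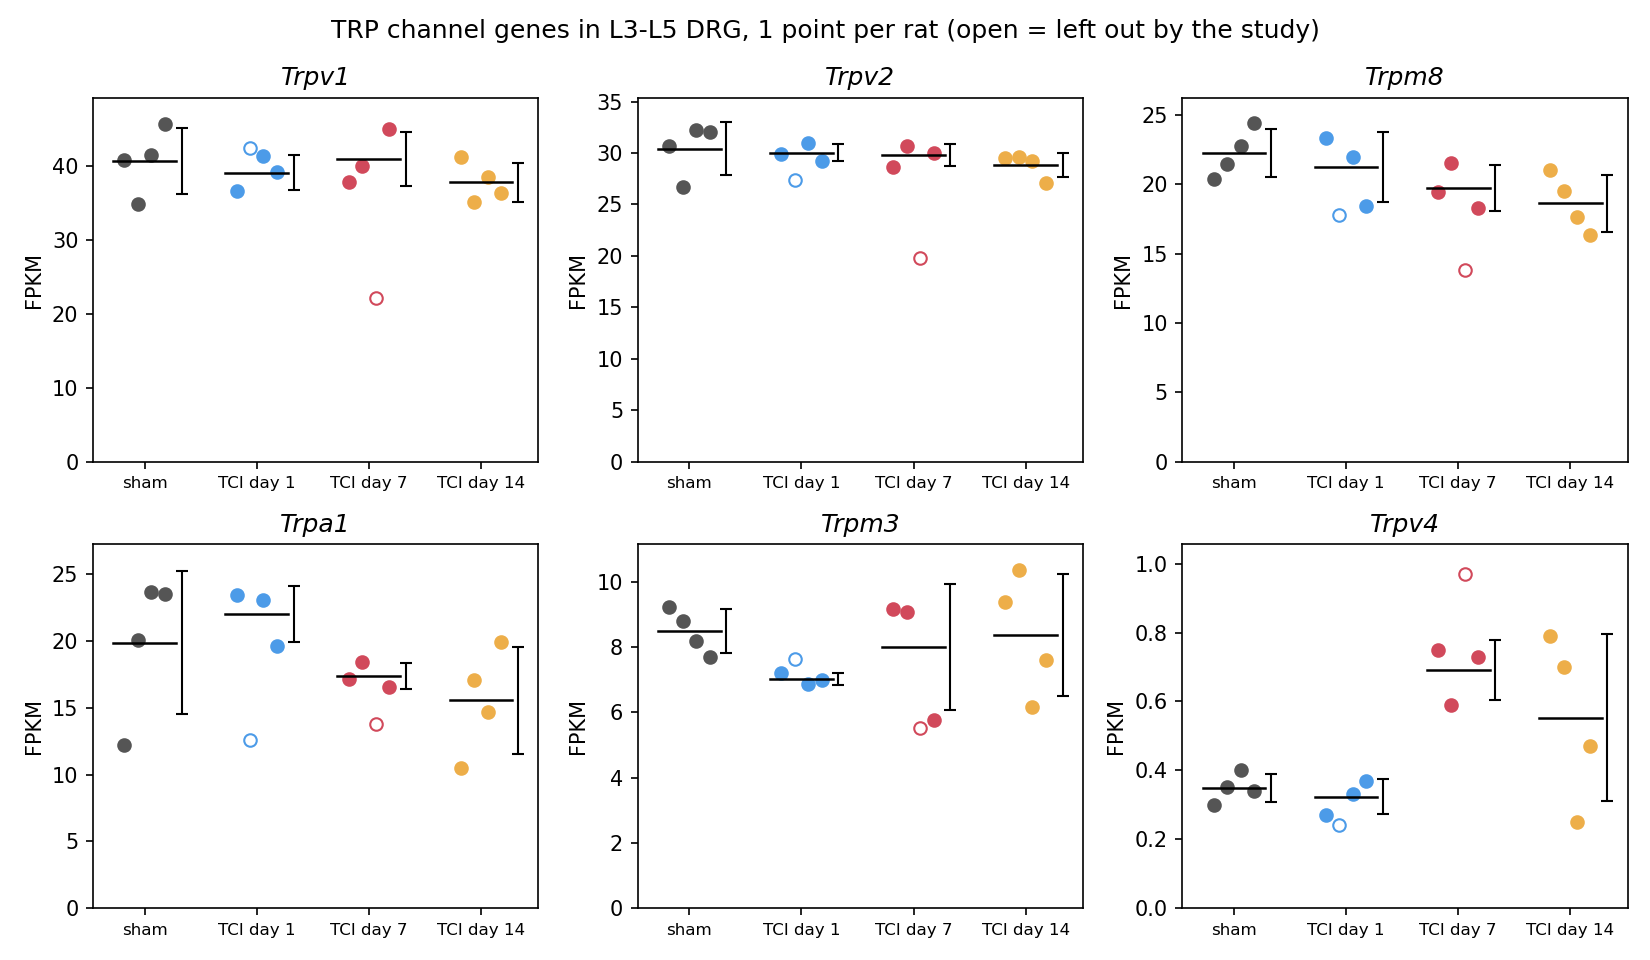
Level of each TRP channel gene in FPKM (vertical axes, starting at 0) in the 4 groups (horizontal axes). Each point is 1 rat, open points are the samples left out by the study, and the line and bar are the mean and SD of the kept samples; Trpv1, Trpv2 and Trpm8 overlapped between groups on every day, while Trpv4 on day 7 lay from 0.59 to 0.97 FPKM, above all sham samples.

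The first question was whether the channels of nociceptors changed in RNA level at any time after TCI. None of the 5 members that passed the filter on low values (at least 1 FPKM in at least 3 samples) was called different from sham on day 1, 7 or 14 by limma at an adjusted p of at most 0.05. Over the 14023 genes tested, 0% were called on day 1, 17.9% on day 7 and 15.1% on day 14. At an unadjusted p under 0.05 there were 0, 0 and 1 of the 5 members, and over all genes 734, 4378 and 4198. The 5 had a median log2 fold change of -0.05, -0.10 and -0.10 on the 3 days, beside 0.00090, 0.04 and 0.03 over all genes tested. The stricter cut-offs of the study (an absolute log2 fold change of 1 or more and q of 0.001 or less) were also applied to the limma fit. At these, 0 of 5 members were called, beside 0%, 1.83% and 0.642% of all genes. The study used another test and reported more genes past these cut-offs on each of the 3 days, day 1 included. The 95% intervals of the 5 members reached from -0.76 to 0.64 over the 3 days, so a change of 1 on the log2 scale lay outside each of them. The 3 comparisons share the sham samples. A lower level in whole ganglia can mean fewer cells of a type or less RNA per cell, and these cannot be told apart.

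Trpv1, the capsaicin and heat receptor, stayed near its sham level on all 3 days. In sham it measured 40.8, 34.8, 41.5 and 45.7 FPKM, and 1 day after TCI 36.7, 42.5, 41.4 and 39.2 FPKM. On day 7 it measured 37.9, 40.0, 22.1 and 45.0 FPKM, and on day 14 it measured 41.2, 35.1, 38.5 and 36.4 FPKM. Every group of kept samples overlapped every other, and the 1 low value, 22.1 FPKM, belonged to sample 3 of day 7, where the muscle genes were high and the neuronal genes low. Its log2 fold change against sham was -0.05 on day 1 (95% interval -0.24 to 0.14), 0.01 on day 7 (-0.18 to 0.20) and -0.10 on day 14 (-0.27 to 0.07), with adjusted p of 0.996, 0.949 and 0.438 by limma. On the linear scale of FPKM + 1, the day 7 interval ran from 0.885 to 1.15 times sham. With all 16 samples the day 7 value was -0.20 (adjusted p = 0.384 by limma). By size of change Trpv1 exceeded 5.73% of all tested genes on day 7.

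Trpv2, the channel of larger afferents, had the smallest spread of the members on days 7 and 14. It measured 30.7, 26.7, 32.2 and 32.1 FPKM in sham and 29.9, 27.4, 30.9 and 29.3 FPKM on day 1. On day 7 it was at 28.6, 30.7, 19.8 and 30.0 FPKM, and on day 14 at 29.5, 29.6, 29.2 and 27.1 FPKM. The kept samples of every TCI group lay within the sham range from 26.7 to 32.2 FPKM, and sample 3 of day 7 was again the exception. In the kept samples of days 1, 7 and 14 the coefficient of variation was 2.83%, 3.58% and 4.14%. The log2 fold changes were -0.01 (95% interval -0.15 to 0.12), -0.03 (-0.16 to 0.11) and -0.07 (-0.19 to 0.05), with adjusted p of 0.999, 0.821 and 0.434 by limma.

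Trpm8, the cold and menthol receptor, was the closest to a call of the 5 members that passed the filter. It measured 20.4, 21.5, 22.8 and 24.5 FPKM in sham, 23.3, 17.8, 21.96 and 18.4 FPKM on day 1, 19.5, 21.5, 13.8 and 18.3 FPKM on day 7, and 21.0, 19.5, 17.6 and 16.4 FPKM on day 14. Of the 4 day 14 samples, 3 lay below the lowest sham sample, and the other, at 21.0 FPKM, lay inside the sham range. The day 14 mean of 18.6 ± 2.05 FPKM (SD, n = 4) was 0.837 times the sham mean. Its log2 fold change was -0.25 (SE 0.09, 95% interval -0.44 to -0.06), with an unadjusted p of 0.0158 and an adjusted p of 0.0802 by limma. This missed the threshold over all genes, and 80.1% of the tested genes had a smaller change on that day. On day 1 and day 7 the log2 fold changes were -0.07 and -0.17, with adjusted p of 0.994 and 0.267 by limma. With sample 1 of day 14 left out the day 14 value passed the threshold, at -0.31 (adjusted p = 0.0405 by limma).

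Trpa1, the irritant receptor, varied widely between the samples of sham and of day 14. It measured 12.2, 20.1, 23.7 and 23.5 FPKM in sham and 23.4, 12.6, 23.1 and 19.7 FPKM on day 1. On day 7 it was at 17.2, 18.4, 13.8 and 16.5 FPKM, and on day 14 at 10.5, 17.1, 14.7 and 20.0 FPKM. Single samples of sham, day 1 and day 14 fell to between 10.5 and 12.6 FPKM, so the groups overlapped with sham on every day, with a coefficient of variation of 26.9% in sham and 25.7% on day 14. The log2 fold change was 0.18 on day 1 (95% interval -0.28 to 0.64), -0.14 on day 7 (-0.61 to 0.32) and -0.33 on day 14 (-0.76 to 0.10), with adjusted p of 0.993, 0.700 and 0.295 by limma. These intervals are the widest of the 5 members, and leaving out 1 sample moved the values. The day 7 value ran from -0.35 without sham sample 1 to -0.05 without sham sample 3, and the day 14 value from -0.53 without sham sample 1 to -0.16 without sample 1 of day 14, none of them called.

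Trpm3, the neurosteroid and heat receptor, lay apart from sham on day 1 in its sample values but not in the fit. It measured 9.23, 8.81, 8.19 and 7.70 FPKM in sham and 7.21, 7.64, 6.87 and 6.98 FPKM on day 1. The kept day 1 samples all lay below the lowest sham sample, as did the fourth, and 5.73% of all tested genes were lower without overlap in the kept samples. The day 1 mean was 0.828 times the sham mean, and the log2 fold change of -0.24 (95% interval -0.58 to 0.10) had an adjusted p of 0.974 by limma. On day 7 Trpm3 was at 9.16, 9.07, 5.51 and 5.77 FPKM and on day 14 at 9.38, 10.4, 6.16 and 7.59 FPKM. Both later groups spread from below the day 1 values to near the top of the sham range or past it, with a coefficient of variation of 24.1% and 22.4% against 7.95% in sham. The log2 fold change was -0.10 on day 7 and -0.04 on day 14, with adjusted p of 0.727 and 0.899 by limma.

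**Figure D2:**
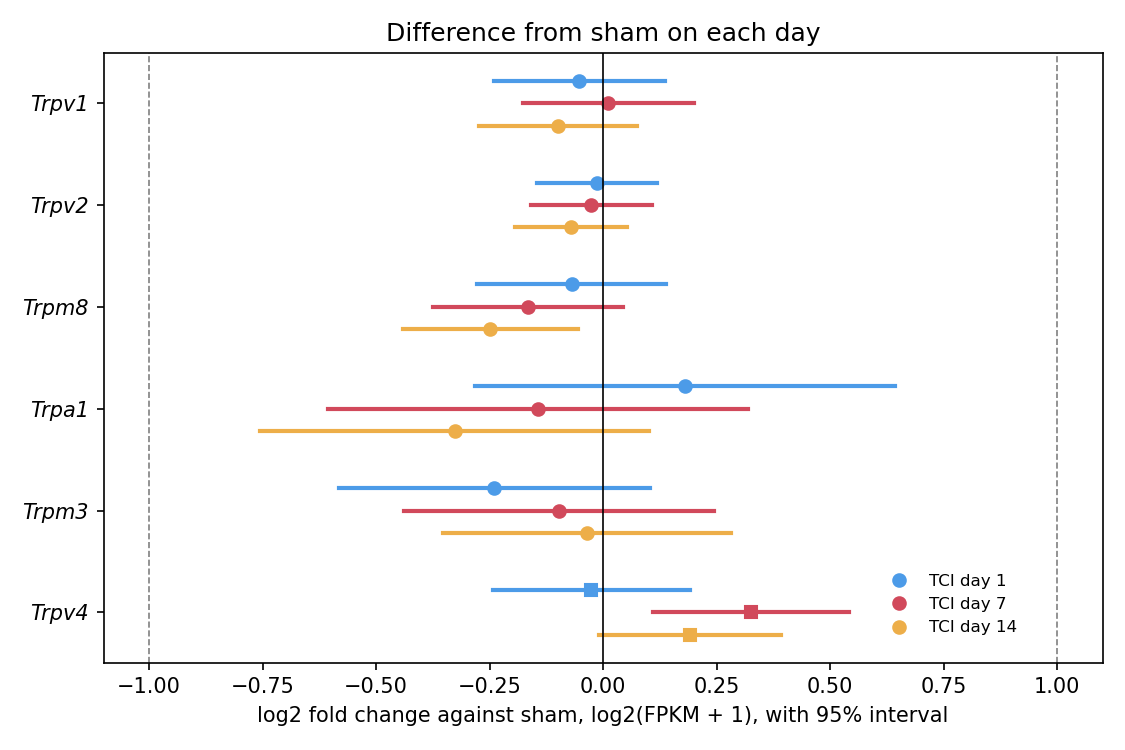
Log2 fold change of each TRP channel gene against sham on days 1, 7 and 14 after TCI (horizontal axis, on the log2(FPKM + 1) scale) with its 95% interval as a line. Circles are from the fit of genes past the filter and squares, for Trpv4, from the fit without a filter; the dashed lines mark 1 and -1, and the intervals that leave out 0 are Trpm8 on day 14 (-0.44 to -0.06) and Trpv4 on day 7 (0.11 to 0.54).

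Trpv4, the swelling and warmth channel, was the only member whose mean differed from sham by over 1.5 times, at a level under 1 FPKM in every sample. It measured 0.30, 0.35, 0.40 and 0.34 FPKM in sham and 0.27, 0.24, 0.33 and 0.37 FPKM on day 1. On day 7 it was at 0.75, 0.59, 0.97 and 0.73 FPKM, and on day 14 at 0.79, 0.70, 0.25 and 0.47 FPKM. All day 7 samples lay above all sham samples, while 3 of the 4 day 14 samples did and the fourth lay below all of them. The day 7 mean was 0.690 ± 0.0872 FPKM (SD, n = 3), 1.99 times the sham mean, and the day 14 mean was 0.553 ± 0.243 FPKM (SD, n = 4), 1.59 times sham. Day 1 was at 0.93 times sham.

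A gene at this level fails the filter, so Trpv4 was tested by itself on log2(FPKM + 0.1). The day 7 difference from sham was 0.82 (two-sided exact permutation test, p = 0.0571), which is the smallest p that 3 against 4 samples allow, so no difference could have passed 0.05. The day 14 difference was 0.46 (two-sided exact permutation test, p = 0.229) and the day 1 difference was -0.08 (p = 0.514). With all 16 samples the day 7 difference was 0.93 (two-sided exact permutation test, p = 0.0286, the smallest for 4 against 4). After Benjamini-Hochberg adjustment over the 6 comparisons between groups, the p of that test was 0.0857. These 16 include sample 3 of day 7, which had high muscle RNA and the highest Trpv4. In a limma fit without a filter the day 7 log2 fold change was 0.33 on the log2(FPKM + 1) scale (95% interval 0.11 to 0.54, adjusted p = 0.0540), and with a pseudocount of 0.1 it was 0.82 (0.24 to 1.4, adjusted p = 0.0678). Both missed the threshold. Higher values without overlap on day 7 were common among weakly expressed genes, at 22.4% of the 3300 genes with a sham mean from 0.1 to under 1 FPKM. Leaving out 1 day 14 sample at a time, a choice made after seeing the data, moved the day 14 difference. Without sample 3 it was 0.73 (two-sided exact permutation test, p = 0.0571, the smallest for 3 against 4). Without sample 1 it was 0.28 (two-sided exact permutation test, p = 0.457). Without sample 2 it was 0.33 (two-sided exact permutation test, p = 0.457). Without sample 4 it was 0.50 (two-sided exact permutation test, p = 0.286).

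Trpv4 was set beside marker genes of other cell types, sample by sample. On day 14, where it was lowest in sample 3, the 10 fibroblast genes summed to 2956, 2144, 894 and 2023 FPKM in samples 1 to 4, with sample 3 lowest as well. On day 7 they summed to between 2611 and 3165 FPKM, against 809 to 1219 FPKM in sham and 1313 to 1805 FPKM on day 1. The day 1 sums lay above all sham sums, while 0 of the 10 fibroblast genes were called on that day, beside 0% of all genes. Sample 3 of day 7, with the highest Trpv4, also had the highest sum of 10 endothelial genes, 130 FPKM. The other day 7 samples were at 80.0 to 104 FPKM and sham at 72.5 to 75.1 FPKM. That sample was also the one with high muscle RNA, 12455 FPKM. On day 1 the endothelial sums were 86.3, 93.4, 72.0 and 77.6 FPKM in samples 1 to 4, with Trpv4 at 0.27, 0.24, 0.33 and 0.37 FPKM. Of the endothelial genes 3 of 10 were called higher on day 7 and 0 of 10 on day 14, beside 14.5% and 11.9% of all genes. The part of these cells, or of muscle, in the Trpv4 values was not tested.

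**Figure D3:**
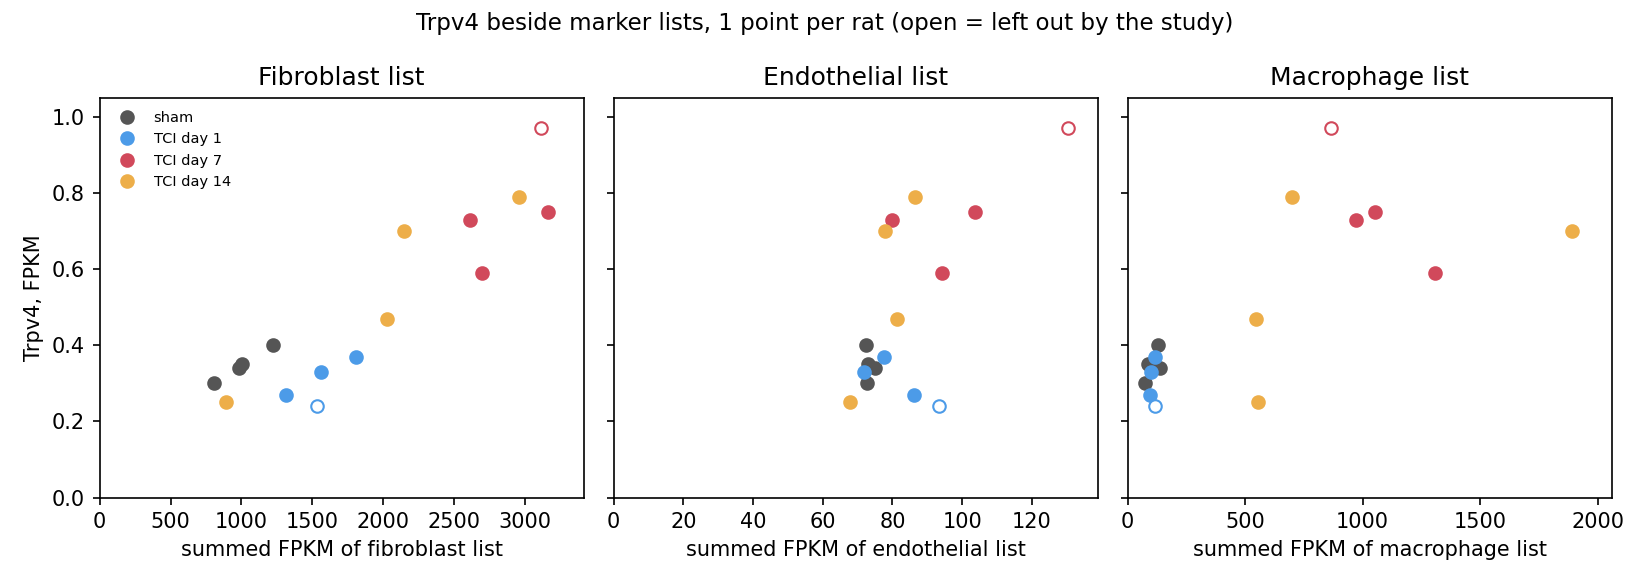
Trpv4 in FPKM (vertical axis) against the summed FPKM of the fibroblast, endothelial and macrophage marker lists (horizontal axes), 1 point per rat, with open points for the samples left out by the study. Day 14 sample 3, at 0.25 FPKM of Trpv4 and 894 FPKM of fibroblast genes, has a fibroblast sum in the sham range and less Trpv4 than any sham sample (left panel), and the other day 14 samples lie toward the day 7 samples.

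Among the TCI groups themselves, 0 of the 5 tested members were called in any of the 3 comparisons, beside 10.4% of all genes between day 7 and day 1, 6.96% between day 14 and day 1 and 0.0998% between day 14 and day 7. At an unadjusted p under 0.05 there were 0, 1 and 0 members. The one was Trpa1, which was lower on day 14 than on day 1 by a log2 fold change of -0.51 (95% interval -0.97 to -0.05), with an unadjusted p of 0.0338 and an adjusted p of 0.184 by limma. With all 16 samples this was -0.32, with an unadjusted p of 0.181 by limma. The kept samples of Trpa1 did not overlap between day 7 and day 1, at means of 17.4 and 22.1 FPKM, and 8.23% of all tested genes were lower without overlap in that comparison. Sample 2 of day 1, left out by the study, measured 12.6 FPKM and lay below all day 7 samples. Trpv4 was 2.13 times as high on day 7 as on day 1 (two-sided exact permutation test, p = 0.1, the smallest that 3 against 3 allow), and 24.4% of genes with like sham levels were higher without overlap in that comparison.

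The second question was whether the members moved with the neurons that hold them. Of 16 genes expressed across neurons, 5 were called lower on day 7 and 6 on day 14, beside 3.45% and 3.21% of all genes, with a median log2 fold change of -0.16 and -0.12. The neurofilament genes Nefh, Nefm and Nefl, which form the axonal skeleton of large neurons, had values of -0.30, -0.30 and -0.29 on day 7, and Snap25, a synaptic fusion gene, had -0.27 (adjusted p from 0.00423 to 0.00922 by limma). Of 6 peptidergic and 7 non-peptidergic nociceptor genes, 0 were called on day 7 and 0 on day 14. Over all genes, 17.9% and 15.1% were called in either direction on these days. The medians of the peptidergic and non-peptidergic genes on day 7 were -0.08 and 0.09.

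Each member was then expressed relative to the mean of 7 neuronal genes in the same sample, on the log2(FPKM + 1) scale. On day 14 Trpv1 differed from sham by 0.00096 and Trpv2 by 0.03. Trpm8 differed by -0.01 on day 7 and -0.15 on day 14, and Trpa1 by 0.01 on day 7 and -0.23 on day 14. Trpm3 stood at -0.20 on day 1 and Trpv4 at 0.48 on day 7, and these had the lowest p of the 18 tests (two-sided exact permutation test, p = 0.0571 for each, 0.514 after Benjamini-Hochberg adjustment). None of the 18 differences passed the threshold, and after adjustment none could have on any day. Before adjustment over the 18 tests, the smallest p of this test is 0.0571 for 3 against 4 samples and 0.0286 for 4 against 4. On day 7, Trpv1, Trpv2, Trpa1 and Trpm3 were at or above sham on this scale, at 0.17, 0.13, 0.01 and 0.06. Relative to the mean of both nociceptor lists joined, Trpv1 was at 0.02 on day 7, while Trpv2, Trpa1 and Trpm3 were below sham, at -0.01, -0.13 and -0.09. On day 14 Trpm8 was at -0.23 on that scale (two-sided exact permutation test, p = 0.0571, or 0.514 adjusted). This too missed a threshold that no value on that scale could have passed.

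**Figure D4:**
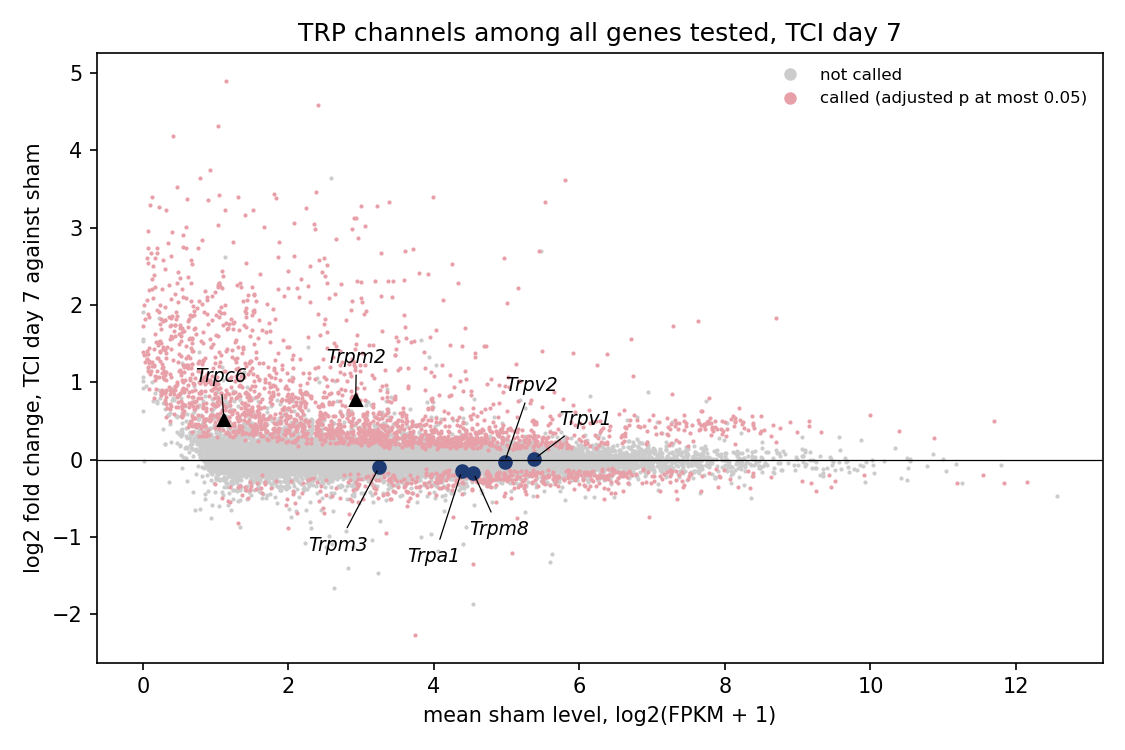
Log2 fold change on day 7 after TCI against sham (vertical axis) over the mean sham level on the log2(FPKM + 1) scale (horizontal axis) for the 14023 genes tested. Pink points are genes called at an adjusted p of at most 0.05, blue circles are the 5 tested members, all between -0.17 and 0.01, and black triangles are Trpm2 (0.77) and Trpc6 (0.51).

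Other genes of the TRP family offered a comparison within the same ganglia. Of 22 further TRP genes, 11 passed the filter, and 3 of these rose on day 7 (27.3%, beside 17.9% of all genes), 2 rose on day 14 (beside 15.1% of all genes) and 0 fell. Trpm2, a channel gated by ADP-ribose and oxidative stress that is abundant in phagocytes, measured 5.21, 6.38, 7.77 and 7.02 FPKM in sham and 13.3, 10.7, 10.7 and 11.7 FPKM on day 7. On day 14 it was at 8.99, 16.5, 10.7 and 9.46 FPKM, again above all sham samples. Its log2 fold change was 0.77 on day 7 and 0.68 on day 14 (adjusted p = 0.00949 and 0.0153 by limma). The highest Trpm2 value of day 14, in sample 2, came with the highest macrophage sum, 1890 FPKM, and the part of those cells was not tested. Whether Trpm2 changed more than any of the members was not tested.

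Trpc6, a channel opened by diacylglycerol, rose from 1.17 ± 0.206 FPKM in sham to 2.11 ± 0.460 FPKM on day 7 and 1.75 ± 0.230 FPKM on day 14 (log2 fold change 0.51 and 0.34, adjusted p = 0.00704 and 0.0422 by limma). The left-out sample 3 of day 7 measured 1.27 FPKM, inside the sham range. The day 14 call of Trpc6 held in 10 of 25 other settings, with adjusted p from 0.00962 to 0.226 by limma. Pkd2, the polycystin channel of cilia, rose from 5.12 ± 0.172 to 6.42 ± 0.339 FPKM on day 7 (0.28, adjusted p = 0.0329 by limma), a call that held in 18 of 26 other settings with adjusted p up to 0.128. The TRP genes outside the 6 members with the highest sham levels were Mcoln1, a lysosomal channel, at 27.9 FPKM, Trpc1 at 9.60 FPKM and Trpm7, a channel with a kinase domain, at 9.23 FPKM, and none of these 3 was called against sham on any day.

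Receptors for inflammatory mediators, cytokines and growth factors, through which the channels can be sensitized, were taken as a list of 26, of which 23 were tested. On day 7, 4 rose and 0 fell (17.4%, beside 17.9% of all genes), and on day 14, 2 rose and 1 fell, beside 15.1% of all genes. Those that rose on day 7 were Cx3cr1, the fractalkine receptor of macrophages and microglia (log2 fold change 1.43), the prostaglandin receptor gene Ptger2 (0.73), the TNF receptor gene Tnfrsf1a (0.33) and Il6st, the shared subunit of the interleukin-6 receptors (0.21). Tnfrsf1a measured from 22.5 to 23.5 FPKM in sham and from 28.5 to 29.8 FPKM in the kept day 7 samples, with no overlap. F2r, a thrombin receptor gene, fell by 0.21 on the log2 scale on day 14 (adjusted p = 0.0397 by limma). The calls of Il6st and F2r held in 11 and 9 of 26 other settings. That of Ptger2 held in 22 of 25, with adjusted p up to 0.105 by limma, and was lost with all 16 samples. The left-out sample 3 of day 7 measured 1.25 FPKM of Ptger2, inside the sham range of 0.85 to 2.37 FPKM. The macrophage sums given above moved with Cx3cr1, and their part was not tested.

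Of 29 kinases, lipases and partner proteins of these channels, 28 were tested, and on day 7, 3 rose and 1 fell (14.3%, beside 17.9% of all genes). Tmem100, which encodes a membrane protein known to bind TRPA1 and TRPV1 and weaken their coupling, measured 4.61, 4.71, 4.91 and 5.30 FPKM in sham and 11.3, 8.45, 21.5 and 9.29 FPKM on day 7. On day 14 it was at 9.09, 7.13, 5.78 and 9.47 FPKM, so every sample of both days lay above the sham range. The log2 fold change was 0.85 on day 7 and 0.57 on day 14 (adjusted p = 0.00110 and 0.0101 by limma), and the day 7 call held in 26 of 26 other settings and the day 14 call in 25, being lost with all 16 samples (adjusted p = 0.110 by limma). Tmem100 is also expressed by endothelium, and its highest value came in sample 3 of day 7. That sample had the highest endothelial sum and also the highest sum of skeletal muscle genes, and the part of either tissue was not tested. Arrb2, which encodes a beta-arrestin that takes receptors off the membrane, rose by 0.40 and 0.35, and Plcg1, a phospholipase, by 0.19 on day 7. Both calls of Arrb2 were lost with all 16 samples (adjusted p = 0.123 and 0.0756 by limma), and that of Plcg1 held in 17 of 26 other settings, with adjusted p up to 0.246. Prkcb, a protein kinase C gene, fell by 0.15 on the log2 scale on day 7, and Fkbp4, which encodes an immunophilin, fell by 0.23 on the log2 scale on day 14. With the neuronal list mean subtracted, Prkcb on day 7 was at -0.00029, and the Fkbp4 call held in 11 of 26 other settings.

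The members were also compared in how they varied between samples of the same group, over the 14 kept samples and 9536 genes with a mean of at least 5 FPKM. Among the genes whose deviations from the group means were most like those of Trpv1 were Fads3, Ldoc1l and A3galt2 (Pearson r from 0.88 to 0.89). For Trpv2 they included Ucp2 and Btg3 (0.89 and 0.86), for Trpm8 Parvb, Plcg1 and Tnik (0.86 for each), and for Trpa1 among others Tmem147 and RGD1564541 (0.85 and 0.84). Trpm3 had the closest companions, B4galt1, Ddx46 and Zkscan1 (0.96 for each). Among the members themselves Trpv1 and Trpv2 varied most alike (r = 0.72 over 14 samples), and Trpv1 and Trpm3 least so (r = -0.47). Genes of 1 library share its depth and tissue content, which enter every such value, and the highest of 9536 values is high by selection.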

How the data were processed

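RNA-seq was measured in 16 DRG samples, 4 per group, mapped to groups by their labels. The authors removed low-quality and adaptor reads, mapped the rest with HISAT and Bowtie2 and quantified genes with RSEM, and they deposited FPKM rounded to 2 decimals, 1 table per sample. The submitters' processing notes also name CASAVA 1.4. The platform is BGISEQ-500 in the methods and Illumina in the labels, and the build, annotation and other versions are not given in the sources used here. FPKM keeps no read totals, so the depth per value is unknown, and depth between samples was compared through the smallest values of weak genes.

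From these FPKM, log2(FPKM + 1) was computed, and genes reaching 1 FPKM in 3 or more of the 14 kept samples were fitted with all 4 groups (limma 3.58.1 in R 4.3.3, lmFit and eBayes with trend) and Benjamini-Hochberg adjusted over 14023 genes. A fold change on this scale understates that of low genes. A second rule put the cut-offs of the study on the same limma fit, and not on the test that the study used. Trpv4 and the values relative to neuronal genes were tested by two-sided exact permutation tests (scipy 1.17.1). The limma step was tested on simulated data. Figures used matplotlib 3.10.9.

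The members, gene lists, tests and most alternatives were chosen with earlier results of these data known. Named were all 6 members, from each list up to 4 genes with the largest change on day 7, further TRP genes called or highest in sham, and the 3 genes most like each member, some of which are not reported here. From the marker and pathway lists, genes called on day 14 (F2r, Fkbp4) and those called beyond the first 4 (Il6st, Plcg1, Prkcb), and the markers Calca and P2rx3, were named after their values were seen. Same-numbered samples came from different animals (18 same-number pairs, r from -0.10 to 0.27, median 0.0026), so the block was only an alternative. Of the 21021 gene identifiers 19220 were found in the RefSeq table of GRCr8, among them all 6 members, and it was used for names, chromosomes and promoters. The highest share of identical values in a sample pair was 2.78%.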

Additional observations from a re-analysis of the deposited data

Results flagged for a closer look

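Of 24 groups of 4 samples (6 members in 4 groups), 2 held a sample far from the others by Dixon's criterion, and chance flags about 1 group in 20. Trpv2 in sample 3 of day 7 was at 19.8 FPKM, against 28.6 to 30.7 FPKM in the other day 7 samples. This is the sample with high muscle and low neuronal RNA that the study left out. Trpv2 in sample 4 of day 14 was at 27.1 FPKM, against 29.2 to 29.6 FPKM in the other day 14 samples, and 27.1 FPKM is inside the sham range.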

How the results depend on the processing

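The count of members called was 0 of 5 in every comparison of the main test and 0 in most alternatives, which were other samples, filters, pseudocounts, normalizations, variance models and left-out samples. Over 780 combinations of member, comparison and setting, 4 were called, with a lowest adjusted p of 0.0368 (limma). The count was 1 on day 14 against sham with quantile normalization (Trpm8, -0.29, adjusted p = 0.0408), and 1 between day 7 and day 1 with only the 2 groups in the fit (Trpa1, -0.32, adjusted p = 0.0368) and with array quality weights (Trpm3, 0.29, adjusted p = 0.0479). Leaving out 1 sample at a time gave counts from 0 to 1, the 1 being Trpm8 on day 14 without sample 1. The cause was not tested. Trpv4 passed an unadjusted 0.05 on day 7 with 16 samples (0.93, two-sided exact permutation test, p = 0.0286).

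Values near 0 changed sign in several settings, none of them called. With all 16 samples, Trpa1 on day 1 was -0.0083 and Trpv1 on day 7 -0.20 against sham, Trpv1 -0.18 between days 7 and 1, and Trpv1 0.10, Trpm8 0.038 and Trpv2 0.095 between days 14 and 7. With the neuronal mean subtracted, Trpv2 was 0.022, 0.13 and 0.030 on days 1, 7 and 14, Trpm3 0.057 and 0.065 on days 7 and 14, Trpa1 0.011 on day 7 and Trpv1 0.00096 on day 14, and against day 1 Trpm8 was 0.022 and Trpv2 0.11 on day 7, and Trpv1 0.017 and Trpv2 0.0077 on day 14. Array weights put Trpv1 at -0.037 and Trpm3 at 0.035 on day 7, Trpv1 at -0.0036 between days 7 and 1, and Trpm3 at -0.054 between days 14 and 7. Quantile normalization put Trpv1 at -0.035 on day 7. Without both muscle-rich samples, an alternative chosen after seeing the data as were all those for Trpv4, Trpv1 was 0.033 on day 1, Trpv2 0.00054 on day 7 and 0.021 between days 7 and 1. With the replicate block, no call was made and Trpv2 was 0.019 between days 7 and 1. With their own number, 6 of 14 samples correlated best, where 18 pairs between groups shared a number and 55 did not.

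Leaving out 1 sample at a time, values on day 1 against sham ranged from -0.12 to 0.0039 for Trpv1, -0.024 to 0.28 for Trpa1, -0.14 to 0.025 for Trpm8 and -0.073 to 0.014 for Trpv2. On day 7 they ranged from -0.060 to 0.068 for Trpv1, -0.20 to 0.096 for Trpm3 and -0.085 to 0.0023 for Trpv2, and on day 14 from -0.14 to 0.086 for Trpm3. Between days 7 and 1 the range was -0.0032 to 0.12 for Trpv1 and -0.033 to 0.016 for Trpv2, and between days 14 and 7 it was -0.13 to 0.18 for Trpm3. For Trpv4 on day 1 it was -0.16 to 0.011. With 3 or 4 samples a group, small changes can be missed, and changes inside the intervals given remain possible. The intervals are not limits of detection, since a call also rests on the adjustment over all genes tested.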
